A study of Mus musculus with 12 samples.

Results

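Signals of the ligands and receptors that steer growing axons were compared in the spinal cord of aged and young mice with and without spinal cord injury (SCI). The genes were chosen by symbol as the semaphorins, plexins, neuropilins, netrins, Dcc and Unc5 receptors, Slits, Robo receptors, ephrins, Eph receptors, and the myelin proteins Rtn4 and Omg with Rtn4r and Lingo1. By this rule 73 of 18193 genes with an annotated probe were members, and 49 of them, among 10510 genes in all, passed a mean signal of 50 in 1 group or more and were tested. The 4 groups were aged injured, young injured, aged intact and young intact cords, each of 3 female C57BL/6 mice (C57BL/6J in the methods of the study) with 1 array per mouse. Aged mice were 15 to 18 months old and young mice 2 to 3 months old. The injured cords received a contusion at the thoracic level Th9 and were taken 9 days later after perfusion with saline, and the segment at the same level was taken from the uninjured mice, which the labels call normal. The labels name no graft and no transgene in any of these groups. The names of 3 members fit the rule by spelling alone: Unc50 is not a netrin receptor, Unc5cl is named only for its likeness to Unc5c, and Plxna4os1 is a transcript from the opposite strand of Plxna4.

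A growing axon reads attractive and repulsive ligands through receptors on its growth cone. Class 3 semaphorins are secreted and bind neuropilins, which signal through plexins, whereas most membrane semaphorins bind plexins directly. Netrin-1 attracts axons through DCC and repels them through UNC5 receptors, Slits repel through ROBO receptors, and ephrins and Eph receptors signal into both cells at a contact. Nogo, encoded by Rtn4, and the oligodendrocyte-myelin glycoprotein, encoded by Omg, are myelin proteins known for stopping axon growth through a receptor complex that holds the products of Rtn4r and Lingo1. Plexins and neuropilins also act in macrophages and vessels, so that their transcripts in a cord segment need not come from neurons.

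A cord segment holds many cell types, and in such bulk RNA fewer cells of a type and less RNA per cell cannot be told apart. Summed signals of 12 neuronal marker genes were 1871 to 12076 in aged injured and 8465 to 13080.0 in young injured cords, against 25015 to 25641 in aged intact and 24217 to 25399.8 in young intact cords, and Chat alone was below 50 in every group. Summed signals of 12 macrophage and microglia markers were 22314 to 26041 in aged injured and 16086 to 21400.1 in young injured cords, against 2627 to 2815 in aged intact and 1602 to 1752 in young intact cords. Of these, Itgam, Gpnmb and Ms4a7 had mean signals below 50 in both intact groups, and Cd68 in young intact cord. Astrocyte marker sums were 7910 to 12750.2 in aged injured and 15632 to 17547 in young injured cords, against 13284 to 13504 in aged intact and 14267 to 14893 in young intact cords. Fibroblast and pericyte marker sums were 11490.1 to 15437 in aged injured and 11864 to 15929.6 in young injured cords, against 3155 to 4497 in aged intact and 4262 to 4558 in young intact cords, and 7 of these 8 markers were called higher after injury at each age. Sums of oligodendrocyte precursor markers were 1278 to 2173 in aged injured and 2186 to 2259 in young injured cords, against 1901 to 1922 in aged intact and 2417 to 2549 in young intact cords. Endothelial marker sums were 546 to 650 in aged injured and 465 to 691 in young injured cords. Intact cords had 489 to 548.5 in aged and 445 to 508 in young mice, and Pecam1 and Kdr were below 50 in every group. Of the 6 endothelial markers tested, 2 were called higher after injury at each age and 1 lower in aged mice. All 4 T cell markers measured were below 50 in every group. Aged injured replicate 1 stood apart from the others, with the lowest sums of neuronal (1871), astrocyte (7910) and oligodendrocyte (15922) markers of all 12 arrays, and it was the lowest of its 3 arrays for 31 of the 49 tested guidance genes. The mean distance among arrays of 1 group was 58.6 in aged injured, 31.4 in young injured, 26.9 in aged intact and 26.8 in young intact cords over all genes tested. The median SD of a guidance gene on the log2 scale was 0.35 in aged injured, 0.18 in young injured, 0.11 in aged intact and 0.09 in young intact cords. The part of these marker and array differences in the following results was not tested.

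After SCI more guidance genes were called lower than higher in aged mice, and about as many were called lower as higher in young mice. In aged mice 12 of the 49 genes tested were higher and 25 lower in injured than in intact cord, a called share of 75.5%, which is the share called among all 10510 genes (75.5%; 35.6% higher and 39.9% lower). In young mice 14 were higher and 15 lower, or 59.2%, against 68.0% of all genes (33.9% higher and 34.1% lower). The even count in young mice depends on the rule. Young injured arrays lay above all young intact arrays for 15 genes and below them for 23. These shares were 30.6% and 46.9%, against 37.5% and 38.7% of all genes. Without aged injured replicate 1, 15 were called higher and 22 lower in young mice, with 72.8% of all genes called. The median log2 fold change of the 49 was -0.34 in aged and -0.10 in young mice, against -0.04 and -0.0047 over all genes. With genes below 50 in 1 group at their bound, the medians of the 49 were -0.18 and -0.10, against -0.02 and 0 over all genes. A gene counts as called at a Benjamini-Hochberg adjusted p under 0.05 from limma, adjusted over all genes tested, and SE stands for the standard error of a log2 fold change. With the study's own cutoffs, a fold of 2 and a signal of 50, 5 members were higher and 12 lower in aged mice (15.5% and 15.5% of all genes), 6 higher and 7 lower in young mice (13.0% and 10.5%), a share of 34.7% in aged and 26.5% in young mice against 31.1% and 23.5% of all genes. The filter keeps a gene that passes 50 only in its higher group, so these counts describe the tested genes and not all 73.

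At both ages 11 of the genes were called higher (Epha3, Epha7, Nrp1, Nrp2, Plxna1, Plxnb2, Plxnc1, Plxnd1, Rtn4, Sema3d and Sema4c) and 15 lower. Lower at both ages were Dcc, Efna3, Efna5, Epha10, Epha5, Ephb1, Omg, Sema3a, Sema3e, Sema4a, Sema7a, Slit1, Slit2, Unc5b and Unc5d. Ntn1 was higher and 10 genes were lower in aged mice alone by these calls, and Efnb2, Sema3c and Sema4d were higher in young mice alone, but none of these differences between ages passed the test of the interaction given further on. With the 6 young arrays alone in the fit, Efnb3, Epha4, Plxna4, Sema4f and Sema6d of the 10 were called lower in young mice too. Their adjusted p were 0.00254, 0.00790, 0.0318, 9.83e-04 and 0.0226, and the others of the 10 did not pass there. Plxnb3 was called lower in young mice without aged injured replicate 1 (adjusted p = 0.0255). No gene was called in opposite directions.

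**Figure D1:**
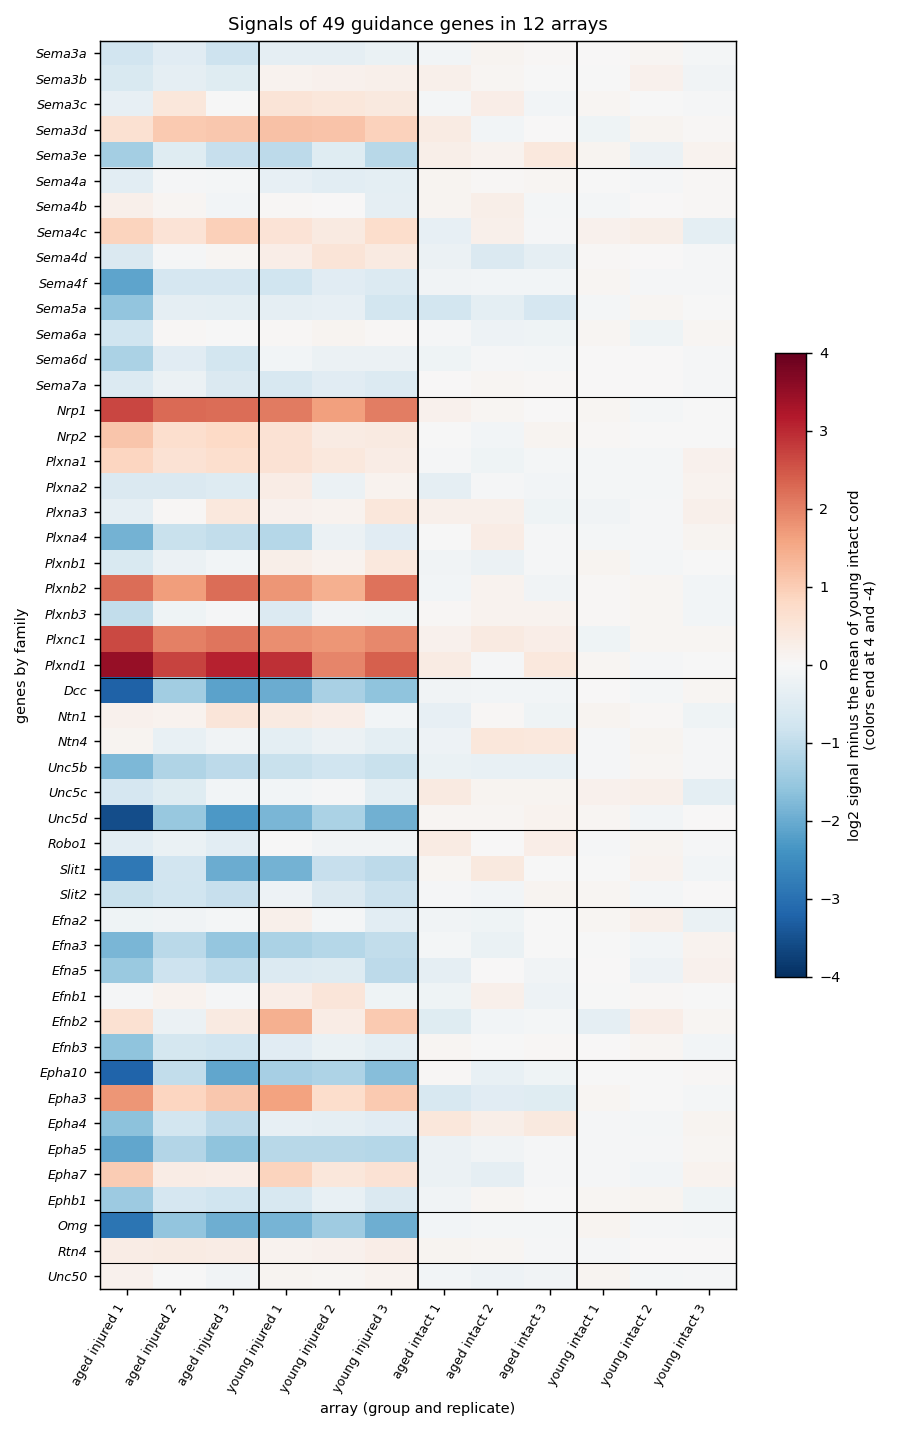
Each cell is the log2 signal of 1 of the 49 tested guidance genes (rows, by family) on 1 of 12 arrays (columns) minus the mean of the 3 young intact cords, with red for higher and blue for lower values. Plxnd1 reached 3.47 and Unc5d -3.56 on aged injured replicate 1, the highest and the lowest values of the map.

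**Figure D2:**
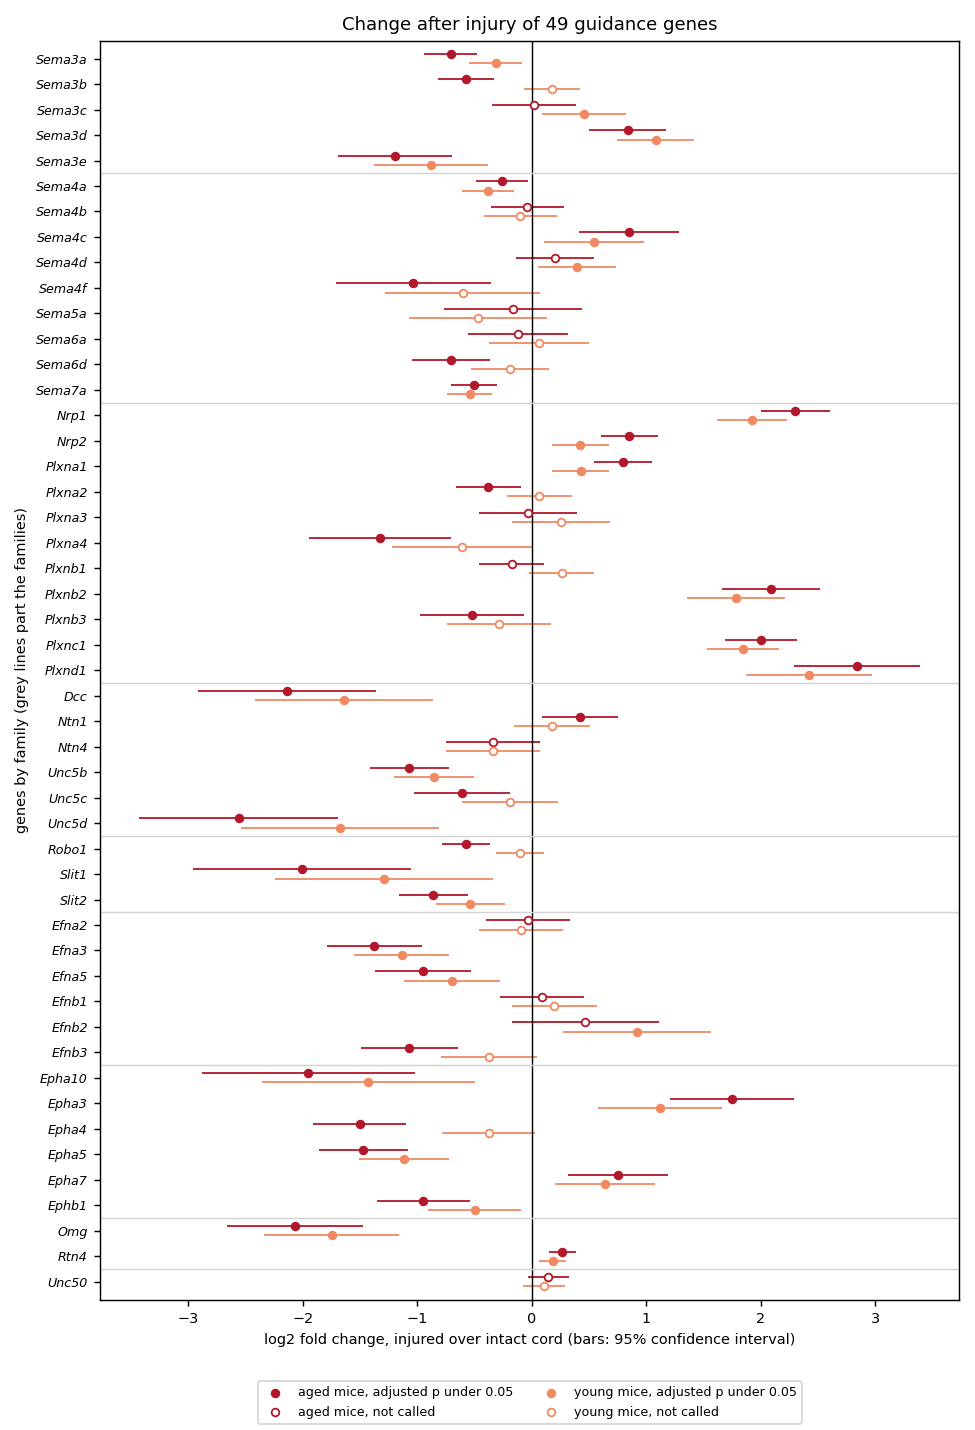
Points are log2 fold changes of injured over intact cord for 49 genes, in aged (dark red) and young (orange) mice, with 95% confidence intervals, and filled points passed an adjusted p of 0.05. Plxnd1, Nrp1, Plxnb2 and Plxnc1 lie farthest to the right and Unc5d, Dcc and Omg farthest to the left as fitted, with Plxnd1, Unc5d and Dcc below a signal of 50 in 1 group.

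Start sites of 4 genes that moved at both ages are shown here, Nrp1 and Plxnd1 among those higher and Slit2 and Epha5 among those lower after SCI, so that genes of both directions can be read side by side. Each window runs from 250 bases before to 50 bases after a transcription start in RefSeq (build GRCm38.p6) and is written along the gene. They lie at chr8:128358823-128359122 on the plus strand, chr6:115994956-115995255 on the minus strand, chr5:47982905-47983204 on the plus strand and chr5:84417333-84417632 on the minus strand. Capitals mark GC boxes, the letters GGGCGG on either strand, to which factors of the Sp family are known to bind.
Nrp1: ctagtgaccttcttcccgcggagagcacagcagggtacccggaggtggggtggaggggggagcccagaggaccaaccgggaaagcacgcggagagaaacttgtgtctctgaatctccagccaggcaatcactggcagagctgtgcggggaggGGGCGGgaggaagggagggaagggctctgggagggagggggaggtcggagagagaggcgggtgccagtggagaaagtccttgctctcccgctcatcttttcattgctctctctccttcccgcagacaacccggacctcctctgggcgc
Plxnd1: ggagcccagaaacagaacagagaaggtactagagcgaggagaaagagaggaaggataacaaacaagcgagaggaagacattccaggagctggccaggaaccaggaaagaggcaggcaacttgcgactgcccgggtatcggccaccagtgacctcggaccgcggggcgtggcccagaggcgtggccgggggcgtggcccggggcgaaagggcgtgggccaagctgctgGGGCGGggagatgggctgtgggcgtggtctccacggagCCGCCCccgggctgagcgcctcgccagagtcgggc
Slit2: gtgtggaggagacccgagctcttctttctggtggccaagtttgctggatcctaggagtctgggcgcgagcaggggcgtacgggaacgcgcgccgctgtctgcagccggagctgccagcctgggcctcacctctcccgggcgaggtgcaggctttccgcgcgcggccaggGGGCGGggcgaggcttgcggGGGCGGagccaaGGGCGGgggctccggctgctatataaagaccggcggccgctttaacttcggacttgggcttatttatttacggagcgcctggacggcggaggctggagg
Epha5: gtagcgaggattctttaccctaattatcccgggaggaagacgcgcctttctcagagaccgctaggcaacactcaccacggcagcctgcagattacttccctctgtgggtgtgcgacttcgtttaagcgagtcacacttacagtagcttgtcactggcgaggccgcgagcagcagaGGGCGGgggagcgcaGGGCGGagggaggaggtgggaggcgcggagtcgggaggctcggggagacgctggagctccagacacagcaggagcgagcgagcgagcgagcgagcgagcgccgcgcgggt

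The windows hold 1 GC box in Nrp1, 2 in Plxnd1, 3 in Slit2 and 2 in Epha5, and the window of Slit2 also holds the letters TATAAA. RefSeq gave 80 windows for 61 of the 73 genes, and 73.8% of them hold a GC box, against 35.7% of all 32851 windows. The share was 80% both for the 15 windows of genes higher at both ages and for the 15 windows of genes lower at both ages. The median share of G and C was 64.3% in the windows of the members and 52.7% over all windows. CCAAT was found in 27.5% of the members' windows and 37.4% of all, TATAAA in 2.5% and 13.6%, TGANTCA (the AP-1 site) in 5% and 7.81%, and CANNTG (the E-box) in 51.2% and 72.3%, each searched on both strands. These are matches of letters and not sites of binding.

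Neuropilins and plexins, the receptors of semaphorins, included the largest measured rises. All 11 were tested, and 6 were higher after SCI at each age (Nrp1, Nrp2, Plxna1, Plxnb2, Plxnc1 and Plxnd1), whereas Plxna2, Plxna4 and Plxnb3 were lower in aged mice and none was lower in young mice. The median log2 fold change of the 11 was 0.79 in aged and 0.42 in young mice. Nrp1 had signals of 2001, 1487 and 1484 in aged injured, 1312, 973 and 1299 in young injured, 354, 332 and 314 in aged intact and 333, 297 and 308 in young intact cords. Every injured cord lay above every intact cord, and the groups of intact cord overlapped. Nrp1, the neuropilin that also binds vascular endothelial growth factor, was 4.97-fold higher in aged mice, a log2 fold change of 2.30 ± 0.14 (SE, adjusted p = 1.80e-07), and 3.82-fold higher in young mice, a log2 fold change of 1.92 ± 0.14 (SE, adjusted p = 8.64e-07). The other 3 Nrp1 probes above 50 were higher too, at 2.03 to 2.73 in aged and 1.63 to 2.19 in young mice on the log2 scale. Plxnd1 had signals of 234, 136 and 178 in aged injured, 160.0, 81.5 and 110.2 in young injured, 26.3, 20.6 and 28.3 in aged intact and 22, 20.4 and 20.8 in young intact cords. The intact cords were below 50 throughout, so the rise of Plxnd1, a receptor of class 3 semaphorins known from vessels, was at least 3.65-fold in aged and at least 2.34-fold in young mice (adjusted p = 2.92e-06 and 1.25e-05 from limma).

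Plxnb2 had signals of 301, 204 and 299 in aged injured, 215, 171 and 289 in young injured, 59, 70.2 and 58.1 in aged intact and 65.5, 66.9 and 59.5 in young intact cords. This receptor of class 4 semaphorins was 4.29-fold higher in aged and 3.52-fold higher in young mice, with log2 fold changes of 2.09 ± 0.19 (SE, adjusted p = 4.41e-06) and 1.78 ± 0.19 (SE, adjusted p = 1.85e-05). Plxnc1 had signals of 489.8, 322 and 346 in aged injured, 286, 266 and 298 in young injured, 88.5, 102 and 93.9 in aged intact and 70.4, 83.1 and 84.1 in young intact cords. Plxnc1, the receptor of semaphorin 7A, was 4.07-fold higher in aged and 3.58-fold higher in young mice (log2 fold changes of 2.00 and 1.84, adjusted p = 6.78e-07 and 1.66e-06). Its ligand gene Sema7a moved the other way, as described with the membrane semaphorins. Nrp2 had signals of 486, 362 and 392 in aged injured, 340.2, 283 and 294 in young injured, 226, 211 and 246 in aged intact and 234, 224 and 223 in young intact cords. The injured cords lay above the intact ones at both ages, and the aged injured cords above all young injured ones. Nrp2 was 1.81-fold higher in aged mice (0.85 ± 0.11 (SE, adjusted p = 5.38e-05) on the log2 scale) and 1.35-fold higher in young mice (0.42 ± 0.11 (SE, adjusted p = 0.00655)). Plxna1 had signals of 112, 92.7 and 97.8 in aged injured, 91.7, 82.1 and 75.9 in young injured, 60.4, 55.4 and 57.9 in aged intact and 58, 58.5 and 69.4 in young intact cords. The rise of Plxna1, a partner of neuropilins, was 1.74-fold in aged and 1.34-fold in young mice (adjusted p = 8.99e-05 and 0.00655). With the mean of its 2 probes, the dimmer below 50 in every group, both calls ended (adjusted p = 0.281 and 0.126).

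**Figure D3:**
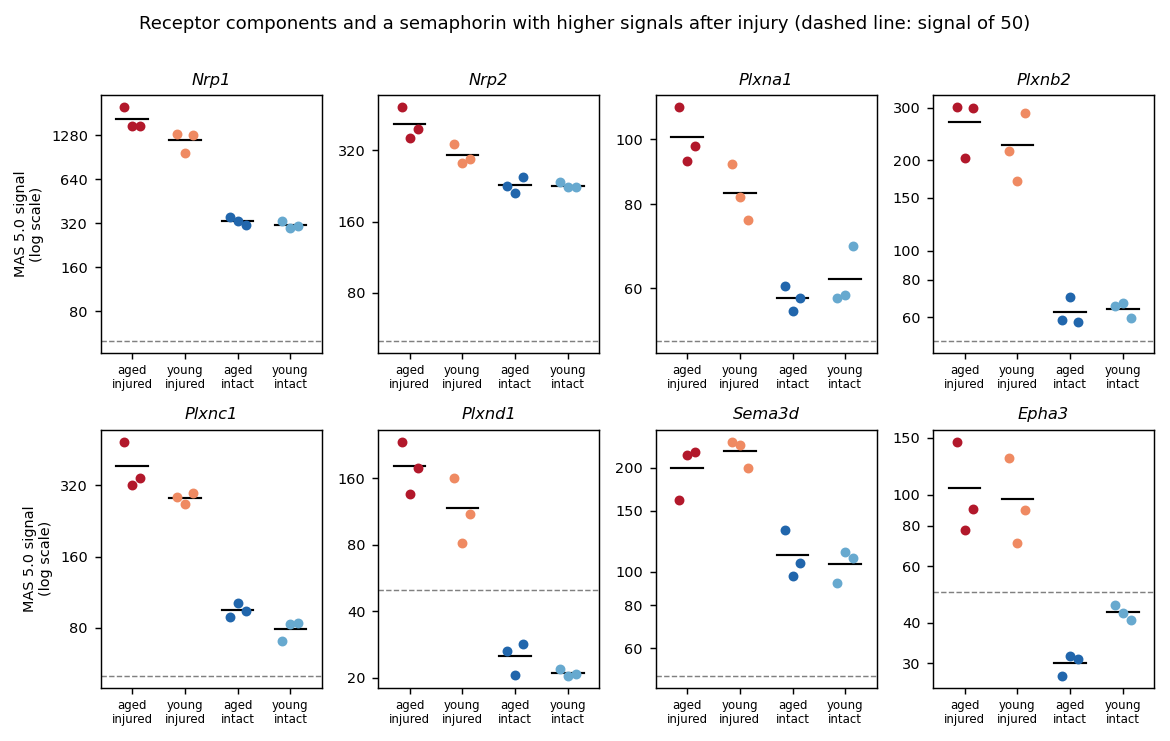
Points are MAS 5.0 signals on a log axis, 1 point per array and 3 arrays in each group, black lines are group means and the dashed line marks a signal of 50. All 6 injured cords lie above all 6 intact cords in each of the 8 panels, and intact cords of Plxnd1 and Epha3 lie below 50.

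The other plexins were not called higher at either age by their brightest probe, and for Plxna2 and Plxnb1 other probes were higher in young mice. Plxna4 had signals of 19.9, 40.1 and 37.5 in aged injured, 33.7, 63.4 and 54.2 in young injured, 73.1, 90.5 and 71.2 in aged intact and 70.5, 72.5 and 80 in young intact cords. Plxna4, a partner of neuropilins in neurons, was at least 1.57-fold lower in aged mice (adjusted p = 0.00126), and in young mice the log2 fold change was -0.61 ± 0.28 (SE, adjusted p = 0.0751). With the 6 young arrays alone the change of Plxna4 in young mice passed (adjusted p = 0.0318). Plxna2 had mean signals of 175 ± 4.0 in aged injured and 228 ± 24.3 in aged intact cords (SD, n = 3 each), at a log2 fold change of -0.38 ± 0.13 (SE, adjusted p = 0.0190), a call that ended without aged intact replicate 2 or 3 (adjusted p = 0.0597 to 0.0710). In young mice its log2 fold change was 0.07 ± 0.13 (SE, adjusted p = 0.663). The 3 other Plxna2 probes gave -0.53, -0.13 and 0.47 in aged mice (adjusted p = 8.32e-04, 0.494 and 0.0966) and 0.17, 0.41 and 0.98 in young mice (adjusted p = 0.176, 0.0486 and 0.00398). With the mean of the 4 probes Plxna2 was called in young mice only, at 0.41 (adjusted p = 0.0226), against -0.14 in aged mice (adjusted p = 0.371). Plxnb3 had 222 ± 69.7 in aged injured and 307 ± 12.3 in aged intact cords, a log2 fold change of -0.52 ± 0.21 (SE, adjusted p = 0.0386). Without aged injured replicate 1 the value of Plxnb3 was -0.23 (adjusted p = 0.0973), and the call also ended without any 1 of the aged intact replicates or without young intact replicate 1 or 2 (adjusted p = 0.0501 to 0.0897). The other Plxnb3 probe gave -0.20 (adjusted p = 0.405), and the call of Plxnb3 ended as well with array weights at -0.22, with the mean of both probes at -0.36, with quantile normalization and with the 6 aged arrays alone (adjusted p = 0.0802, 0.137, 0.0526 and 0.0956). Plxnb1, a receptor of semaphorin 4D, and Plxna3 were not called at either age, with log2 fold changes of -0.18 and -0.03 in aged and 0.26 and 0.26 in young mice. A second Plxnb1 probe was higher in young mice at 0.57 (adjusted p = 0.00850), as was the mean of both at 0.42 (adjusted p = 0.0134), and it gave 0.02 in aged mice (adjusted p = 0.921).

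Among class 3 semaphorins, the secreted ligands, 5 of 7 genes were tested and they moved in different directions. Sema3d was higher and Sema3a and Sema3e lower at both ages, Sema3b was lower in aged mice and Sema3c was higher in young mice. Sema3d had signals of 161, 218 and 222 in aged injured, 238, 233 and 200.0 in young injured, 132, 97.4 and 106 in aged intact and 93.1, 114 and 109.8 in young intact cords. All injured cords lay above all intact cords, by 1.79-fold in aged and 2.12-fold in young mice, and the log2 fold changes were 0.84 ± 0.15 (SE, adjusted p = 4.67e-04) and 1.08 ± 0.15 (SE, adjusted p = 1.17e-04). Sema3a had signals of 83.1, 103 and 80 in aged injured, 112, 112 and 119 in young injured, 133, 152 and 148 in aged intact and 144, 149.5 and 134 in young intact cords. Sema3a, the prototype of the repulsive semaphorins, was 1.62-fold lower in aged mice (-0.71 ± 0.10 (SE, adjusted p = 1.14e-04) on the log2 scale) and 1.24-fold lower in young mice (-0.31 ± 0.10 (SE, adjusted p = 0.0201)). The call in young mice ended without young injured replicate 1 or 2 and without young intact replicate 1 or 2 (adjusted p = 0.0507 to 0.0688), and with the mean of its 3 probes its log2 fold change in young mice was 0.15 (adjusted p = 0.413). In aged mice that mean gave -0.04 (adjusted p = 0.810), and the other Sema3a probes in it were below 50 in every group.

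Sema3e had signals of 30.4, 55.8 and 41.3 in aged injured, 38.3, 55.7 and 36.5 in young injured, 92.8, 87.2 and 105 in aged intact and 84.4, 66.5 and 86 in young intact cords. Sema3e, the ligand of plexin D1, was thus at least 1.9-fold lower in aged and at least 1.58-fold lower in young mice (adjusted p = 5.89e-04 and 0.00549), with no overlap between injured and intact cords, while its receptor gene Plxnd1 was higher. Sema3b had 51.1 ± 4.75 in aged injured and 76.1 ± 5.94 in aged intact cords (SD, n = 3 each), and it was 1.49-fold lower (-0.58 ± 0.11 (SE, adjusted p = 7.39e-04) on the log2 scale), a call that ended with the mean of its 3 probes at -0.33 (adjusted p = 0.168). In young mice it had 80.4 ± 2.01 in injured and 71.5 ± 7.95 in intact cords, a log2 fold change of 0.17 ± 0.11 (SE, adjusted p = 0.186). Sema3c had 455 ± 18.5 in young injured and 332 ± 13.4 in young intact cords, a log2 fold change of 0.45 ± 0.17 (SE, adjusted p = 0.0300), and this call ended when any 1 of the 6 young arrays was left out (adjusted p = 0.0504 to 0.0806) or with the mean of its 2 probes, at 0.29 (adjusted p = 0.119). In aged mice the log2 fold change of Sema3c was 0.02 ± 0.17 (SE, adjusted p = 0.926), with signals of 264, 455 and 331 in aged injured cords that spanned those of aged intact cords.

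Of 13 membrane semaphorins 9 were tested, and 1 was higher and 4 lower in aged, 2 higher and 2 lower in young mice. Sema4c was higher at both ages, Sema4a and Sema7a were lower at both ages, Sema4f and Sema6d were lower in aged mice, and Sema4d was higher in young mice. Sema7a had signals of 172, 213 and 169 in aged injured, 162, 182 and 174 in young injured, 256, 266 and 262 in aged intact and 255, 256 and 242 in young intact cords. Semaphorin 7A, which is anchored to the membrane by a lipid, had no overlap between injured and intact cords and was 1.41-fold lower in aged and 1.46-fold lower in young mice, with log2 fold changes of -0.51 ± 0.09 (SE, adjusted p = 4.21e-04) and -0.54 ± 0.09 (SE, adjusted p = 3.65e-04). The call in aged mice ended with the mean of its 2 probes, at -0.31 (adjusted p = 0.157). Sema6d had signals of 521, 907 and 756 in aged injured, 1160.4, 1062 and 1048 in young injured, 1099, 1209 and 1170.2 in aged intact and 1260.1, 1263 and 1214 in young intact cords. Sema6d was 1.59-fold lower in aged mice (-0.71 ± 0.15 (SE, adjusted p = 0.00153) on the log2 scale), and in young mice the log2 fold change was -0.19 ± 0.15 (SE, adjusted p = 0.281). It passed in young mice with the 6 young arrays alone (adjusted p = 0.0226). With the mean of its 4 probes the value in aged mice was 0.03 (adjusted p = 0.900), a mean that includes probes below 50 in every group. The other Sema6d probe above 50 was lower in aged mice too, at -0.65 (adjusted p = 0.0312, limma over all probes). Sema4f had 37.3, 102 and 102 in aged injured and 148, 150.5 and 150.0 in aged intact cords, a log2 fold change of -1.04 ± 0.31 (SE, adjusted p = 0.00969), and leaving out aged injured replicate 1 gave -0.55 (adjusted p = 4.58e-04). With the 6 aged arrays alone the adjusted p of Sema4f lay just above 0.05. In young mice its log2 fold change was -0.60 ± 0.31 (SE, adjusted p = 0.102), a change that passed with the 6 young arrays alone and with signals below 50 set to 50 (adjusted p = 9.83e-04 and 0.0340).

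Sema4c had 74.8 ± 10.8 in aged injured and 41.7 ± 7.45 in aged intact cords (SD, n = 3 each), at least 1.5-fold higher (adjusted p = 0.00241). In young mice it had 62.3 ± 7.86 in injured and 43.3 ± 9.27 in intact cords, at least 1.25-fold higher (adjusted p = 0.0314), and the call ended without young injured replicate 1 or 3 (adjusted p = 0.0728 to 0.104). Without young intact replicate 3 the log2 fold change of Sema4c in young mice was 0.35 (adjusted p = 0.131), against 0.54 with all arrays, and quantile normalization or a replicate block ended the call (adjusted p = 0.0620 and 0.0515). Sema4a was lower by 1.19-fold in aged and 1.3-fold in young mice (adjusted p = 0.0366 and 0.00653). In aged mice the change of Sema4a was -0.14 without aged injured replicate 1 (adjusted p = 0.167), against -0.26 with it, and its call also ended without any 1 of the aged intact replicates (adjusted p = 0.0624 to 0.0897), with no filter, with a replicate block and with the 6 aged arrays alone (adjusted p = 0.0589, 0.0503 and 0.106). Sema4d had signals of 95.1, 138 and 149 in aged injured, 172, 205 and 183 in young injured, 121, 95.8 and 109.7 in aged intact and 146, 142 and 138 in young intact cords. Semaphorin 4D, a ligand of plexin B1 also known from lymphocytes, was 1.31-fold higher in young mice (0.39 ± 0.15 (SE, adjusted p = 0.0420)), a call that ended without any 1 of the 6 young arrays or aged intact replicate 3 (adjusted p = 0.0505 to 0.127), with median centring, with no filter or with a replicate block (adjusted p = 0.0667, 0.0575 and 0.0553). In aged mice the log2 fold change was 0.20 ± 0.15 (SE, adjusted p = 0.247). A second, dimmer Sema4d probe gave log2 fold changes of 1.54 in aged and 1.22 in young mice (adjusted p = 9.56e-07 and 7.44e-06, limma over all probes), so the probes disagree on the size at both ages. Sema4b, Sema5a and Sema6a were not called at either age, with log2 fold changes of -0.04, -0.17 and -0.12 in aged and -0.10, -0.47 and 0.06 in young mice. With the 6 young arrays alone Sema5a was called lower in young mice (adjusted p = 0.00600).

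Of the netrins and their receptors, Dcc, Unc5b and Unc5d were lower at both ages, Unc5c was lower in aged mice, and the ligand gene Ntn1 was higher in aged mice. Of 7 genes 6 were tested, with a median log2 fold change of -0.84 in aged and -0.60 in young mice as fitted, and of -0.82 and -0.52 with genes below 50 in 1 group at their bound. Dcc had signals of 12.5, 44.1 and 26.4 in aged injured, 29.2, 47.4 and 37.8 in young injured, 105, 108 and 109 in aged intact and 117, 111 and 122 in young intact cords. The receptor of netrin-1 for attraction was below 50 in every injured cord and above 100 in every intact cord, at least 2.15-fold lower in aged and at least 2.33-fold lower in young mice (adjusted p = 2.43e-04 and 0.00191). A second Dcc probe gave log2 fold changes of -1.76 in aged and -1.50 in young mice, which are no measure of a fold since the injured cords lie below 50. Unc5d had signals of 8.1, 33.3 and 19.5 in aged injured, 26.9, 39.4 and 25.3 in young injured, 101, 102 and 105 in aged intact and 101, 88.6 and 97.6 in young intact cords. Unc5d, a receptor for repulsion, showed the same order, at least 2.05-fold lower in aged and at least 1.92-fold lower in young mice (adjusted p = 1.46e-04 and 0.00319). Unc5b had signals of 41.4, 62.5 and 70 in aged injured, 78.3, 82.5 and 78.4 in young injured, 121, 118 and 118 in aged intact and 140.5, 153 and 139 in young intact cords. Unc5b was 2.05-fold lower in aged mice (-1.07 ± 0.16 (SE, adjusted p = 1.09e-04) on the log2 scale) and 1.81-fold lower in young mice (-0.85 ± 0.16 (SE, adjusted p = 7.12e-04)). On aged injured replicate 1, the array with the lowest neuronal marker sum, Dcc, Unc5d and Unc5b had their lowest signals of all 12 arrays.

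Unc5c had 55.1, 63.4 and 82.9 in aged injured and 114, 95.1 and 95.2 in aged intact cords, a log2 fold change of -0.61 ± 0.19 (SE, adjusted p = 0.0124), and -0.19 in young mice (adjusted p = 0.386). Ntn1 had signals of 121, 119 and 149.6 in aged injured, 139, 128 and 100.2 in young injured, 84.8, 112 and 95.1 in aged intact and 117, 111 and 95.7 in young intact cords. The netrin-1 gene was 1.34-fold higher in aged mice (0.42 ± 0.15 (SE, adjusted p = 0.0256) on the log2 scale), and the call ended without aged injured replicate 3 and without aged intact replicate 1 or 3 (adjusted p = 0.0620 to 0.104). In young mice the injured and intact cords overlapped, with a log2 fold change of 0.18 ± 0.15 (SE, adjusted p = 0.321). With the mean of both Ntn1 probes, 1 of them below 50, the values were 0.16 in aged and 0.94 in young mice (adjusted p = 0.605 and 0.00877). Ntn4, a netrin of basement membranes, had means of 43.7 ± 6.46 in aged injured, 37.1 ± 2.4 in young injured, 56 ± 13.5 in aged intact and 47 ± 3.06 in young intact cords and was not called at either age.

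**Figure D4:**
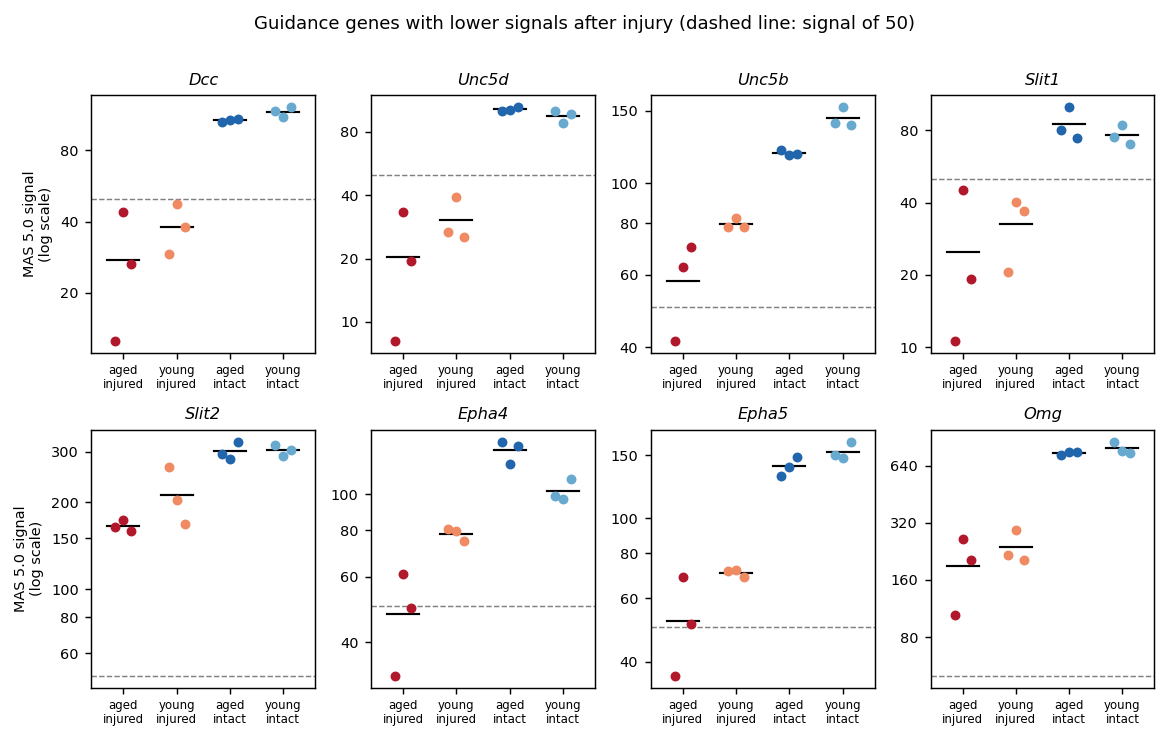
Points are MAS 5.0 signals on a log axis, 1 point per array and 3 arrays in each group, black lines are group means and the dashed line marks a signal of 50. The injured cords lie below the intact cords of the same age in each of the 8 panels, and those of Dcc, Unc5d and Slit1 lie below 50.

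Both Slit genes that were tested fell at both ages, and Robo1 fell in aged mice. Slit2 had signals of 164, 173 and 159 in aged injured, 266, 204 and 168 in young injured, 295, 283 and 324 in aged intact and 317, 289 and 304 in young intact cords. Slit2, a secreted repellent of the midline, was 1.82-fold lower in aged mice (-0.86 ± 0.14 (SE, adjusted p = 1.81e-04) on the log2 scale) and 1.43-fold lower in young mice (-0.54 ± 0.14 (SE, adjusted p = 0.00497)), with no overlap between injured and intact cords. Slit1 had signals of 10.6, 45 and 19.2 in aged injured, 20.5, 40.2 and 36.8 in young injured, 80, 100.0 and 74.6 in aged intact and 74.8, 84.2 and 70.1 in young intact cords. Slit1 was below 50 in all 6 injured cords, at least 1.7-fold lower in aged and at least 1.53-fold lower in young mice (adjusted p = 0.00140 and 0.0209), and the call in young mice ended without young injured replicate 1 or young intact replicate 2 (adjusted p = 0.0595 to 0.0881) or with the mean of both probes (adjusted p = 0.389). Robo1 had signals of 188, 209.9 and 188 in aged injured, 247, 229.5 and 229.9 in young injured, 318, 253 and 306 in aged intact and 242, 271 and 245 in young intact cords. Robo1, their receptor, was 1.5-fold lower in aged mice (-0.58 ± 0.10 (SE, adjusted p = 2.45e-04) on the log2 scale), and in young mice the log2 fold change was -0.10 ± 0.10 (SE, adjusted p = 0.363). A dimmer Robo1 probe had a larger difference at both ages, with mean signals of 18.5 in aged injured, 20.9 in young injured, 98.3 in aged intact and 97.5 in young intact cords (adjusted p = 8.60e-05 in aged and 2.40e-04 in young mice, limma over all probes). The probes of Robo1 thus differ on whether it fell in young mice.

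Among ephrins and Eph receptors, which signal at cell contacts, more were called lower than higher at both ages. Of 6 tested Eph receptors, Epha3 and Epha7 were higher and Epha5, Epha10 and Ephb1 lower at both ages, and Epha4 was lower in aged mice, while of 6 tested ephrins Efna3 and Efna5 were lower at both ages, Efnb3 was lower in aged mice and Efnb2 was higher in young mice. Epha4 had signals of 32.5, 61.1 and 49.6 in aged injured, 80.7, 79.5 and 74.7 in young injured, 138, 120.3 and 135 in aged intact and 98.8, 97.2 and 109.5 in young intact cords. Epha4, the receptor that binds ephrins of both classes, was at least 2.62-fold lower in aged mice, with a log2 fold change of -1.50 ± 0.18 (SE, adjusted p = 3.01e-05), while in young mice it was 1.3-fold lower with -0.38 ± 0.18 (SE, adjusted p = 0.0892). The 3 other Epha4 probes above 50 were lower in aged mice too, at -0.85, -1.22 and -2.06, and in young mice they gave -0.44, -0.78 and -0.92 (adjusted p = 0.0600, 3.29e-04 and 0.0190). So for Epha4 in young mice 2 of 4 probes passed the test and the brightest did not. The brightest probe passed with the 6 young arrays alone (adjusted p = 0.00790). Epha5 had signals of 36.5, 68.6 and 50.7 in aged injured, 71.5, 71.7 and 68.8 in young injured, 131, 139 and 148 in aged intact and 149.8, 147 and 163 in young intact cords. Epha5, a receptor of class A ephrins, was 2.69-fold lower in aged mice (-1.47 ± 0.18 (SE, adjusted p = 2.69e-05) on the log2 scale) and 2.17-fold lower in young mice (-1.12 ± 0.18 (SE, adjusted p = 2.66e-04)).

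Epha3 had signals of 146, 77.7 and 90.1 in aged injured, 130.1, 70.8 and 89.4 in young injured, 27.4, 31.6 and 31 in aged intact and 45.6, 43 and 40.8 in young intact cords. Epha3 went the other way, at least 2.09-fold higher in aged and at least 1.94-fold higher in young mice (adjusted p = 8.08e-05 and 0.00213), with intact cords below 50 on every array. In both injured groups Epha3 was highest on replicate 1 and lowest on replicate 2, as were the fibroblast and pericyte marker sums (15437, 11490.1 and 13249 in aged injured, 15929.6, 11864 and 13727 in young injured cords). Neuronal marker sums had the reverse order in both groups (1871, 12076 and 7880 in aged injured, 8465, 13080 and 11247 in young injured cords). Macrophage and microglia sums (26041, 22314 and 24943) had the order of Epha3 in aged but not in young injured cords. The order thus points to no single cell type, and the part of the markers in the change of Epha3 was not tested. Epha7 had 120.1 ± 38.5 in aged injured and 69.4 ± 7.8 in aged intact cords, and 127 ± 21.1 in young injured and 80.9 ± 7.22 in young intact cords (SD, n = 3 each), or 1.73-fold and 1.57-fold higher (adjusted p = 0.00482 and 0.0139). The call of Epha7 in young mice ended without young injured replicate 1 (adjusted p = 0.0611), and the mean of its 4 probes gave -0.23 in aged and -0.03 in young mice, below 0 and not called. That mean includes probes below 50 in every group. The other Epha7 probe above 50 was called higher at both ages, at 0.58 in aged and 0.57 in young mice (adjusted p = 0.0379 and 0.0455, limma over all probes). Ephb1 was 1.88-fold lower in aged and 1.41-fold lower in young mice (log2 fold changes of -0.95 ± 0.18 (SE, adjusted p = 7.32e-04) and -0.50 ± 0.18 (SE, adjusted p = 0.0319)), and the call in young mice ended without young injured replicate 1 or 3 or young intact replicate 1 or 2 (adjusted p = 0.0853 to 0.101). Epha10 had signals of 6.5, 30.2 and 14.3 in aged injured, 23.8, 25.4 and 18.5 in young injured, 62.2, 49.2 and 53.3 in aged intact and 59.7, 59.1 and 61.9 in young intact cords. All injured cords lay below all intact ones, and Epha10 was at least 1.1-fold lower in aged and at least 1.2-fold lower in young mice (adjusted p = 0.00143 and 0.0112). With signals below 50 set to 50 its call in aged mice ended (adjusted p = 0.111).

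Efnb3 had signals of 130.1, 247 and 230.4 in aged injured, 292, 329.7 and 301 in young injured, 418, 396 and 413 in aged intact and 404, 420.0 and 373 in young intact cords. Ephrin B3, a midline ligand of Epha4 that is also made by oligodendrocytes, was 2.02-fold lower in aged mice (-1.07 ± 0.19 (SE, adjusted p = 4.04e-04) on the log2 scale), and in young mice the log2 fold change was -0.38 ± 0.19 (SE, adjusted p = 0.0997) although the groups did not overlap. Oligodendrocyte marker sums were 15922 to 22225 in aged injured and 24152 to 26151 in young injured cords, against 22699 to 24148 in aged intact and 26399 to 28055 in young intact cords. Efna5 was 1.91-fold lower in aged mice (-0.95 ± 0.19 (SE, adjusted p = 8.71e-04) on the log2 scale) and 1.61-fold lower in young mice (-0.70 ± 0.19 (SE, adjusted p = 0.00715)). With the mean of both Efna5 probes, 1 of them below 50, both calls ended, at -0.87 and -0.25 (adjusted p = 0.0590 and 0.596). Efna3 had signals of 18.6, 31.5 and 22.6 in aged injured, 27.4, 30.2 and 33.5 in young injured, 63.6, 54.8 and 66.3 in aged intact and 65.9, 61.3 and 73.1 in young intact cords. The injured cords were below 50 and the intact cords above it, and Efna3 was at least 1.23-fold lower in aged and at least 1.34-fold lower in young mice (adjusted p = 6.98e-05 and 3.63e-04). Efnb2 had signals of 219, 121 and 184 in aged injured, 382, 176 and 295 in young injured, 103, 134 and 134 in aged intact and 112, 173 and 151 in young intact cords. Ephrin B2, the ligand that marks arteries, was 1.95-fold higher in young mice (0.92 ± 0.29 (SE, adjusted p = 0.0162) on the log2 scale), and the call ended without young injured replicate 1 or 3 or young intact replicate 1 (adjusted p = 0.0513 to 0.0734) or with the mean of its 4 probes, at 0.40 (adjusted p = 0.198). In aged mice the injured and intact cords overlapped at a log2 fold change of 0.47 ± 0.29 (SE, adjusted p = 0.167), but a dimmer Efnb2 probe passed in aged mice as well, at 0.57 (adjusted p = 0.0188). Efnb1 and Efna2 were not called at either age, with log2 fold changes of 0.09 and -0.03 in aged and 0.20 and -0.10 in young mice. The mean of the 3 Efnb1 probes, 2 of them below 50, was called higher at both ages, at 0.36 and 0.53 (adjusted p = 0.0284 and 0.00515).

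Of the myelin inhibitors, Omg fell and Rtn4 was slightly higher. Omg had signals of 104, 264 and 203 in aged injured, 216, 293 and 204 in young injured, 728, 752 and 754 in aged intact and 854, 768 and 749 in young intact cords. The highest injured cord lay at 293 and the lowest intact cord at 728, and Omg, which neurons express as well as oligodendrocytes, was 3.91-fold lower in aged mice (-2.07 ± 0.27 (SE, adjusted p = 4.54e-05) on the log2 scale) and 3.32-fold lower in young mice (-1.75 ± 0.27 (SE, adjusted p = 2.07e-04)). Rtn4 had signals of 5367, 5483 and 5374 in aged injured, 4782, 4894 and 5210.0 in young injured, 4685, 4600.0 and 4207 in aged intact and 4198, 4457 and 4449 in young intact cords. Rtn4 was 1.2-fold higher in aged mice (0.27 ± 0.05 (SE, adjusted p = 8.75e-04) on the log2 scale) and 1.14-fold higher in young mice (0.18 ± 0.05 (SE, adjusted p = 0.0106)). Under quantile normalization its log2 fold changes were 0.02 and 0.02 (adjusted p = 0.742 and 0.767), and with median centring the call in young mice ended (adjusted p = 0.0665). The mean of its 5 probes gave 0.11 in aged and 0.14 in young mice and ended both calls (adjusted p = 0.189 and 0.101). Another Rtn4 probe was lower in aged mice, with mean signals of 563 in injured and 958 in intact cords (log2 fold change -0.86, adjusted p = 0.00693), the only probe of a called gene that passed in the opposite direction in aged mice. Rtn4r and Lingo1, which encode parts of the receptor complex, had mean signals below 50 in all groups.

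The brightest probes were checked against the others of the same gene where these too passed 50 in a group. In aged mice 28 further probes belonged to 16 called genes, and 23 of them were called in the same direction, 3 had the same sign without passing, 1 had the opposite sign without passing and 1 was called opposite. In young mice 19 of 21 further probes of 13 called genes were called in the same direction and none in the opposite one.

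Between aged and young injured cords, 7 of the 49 genes differed. All but Epha4 were semaphorins or semaphorin receptors, which are also a large part of the 49. The 49 hold 5 class 3 semaphorins, 9 membrane semaphorins and 11 neuropilins and plexins. Nrp2 was higher, and Sema3b, Plxna2, Plxnb1, Epha4, Sema6d and Sema4d were lower in aged injured cord, a called share of 14.3% against 8.94% of all 10510 genes (4.38% higher and 4.57% lower). The median log2 fold change was -0.29 for the 49 genes and -0.04 for all, and 22 of the 49 (44.9%) passed an unadjusted p of 0.05, against 30.1% of all genes. With genes below 50 in 1 group at their bound the medians were -0.11 and -0.0030. Sema3b had 46.3, 55.8 and 51.2 in aged injured and 78.7, 79.8 and 82.6 in young injured cords, 1.57-fold lower in aged mice (-0.66 ± 0.11 (SE, adjusted p = 0.0120) on the log2 scale), a call that held without any single array and ended with the mean of its 3 probes, at -0.48 (adjusted p = 0.170). Plxna2 had 171, 174 and 179 in aged injured and 314, 219.7 and 283 in young injured cords, and Plxnb1 had 65.6, 83.7 and 91.5 in aged injured and 116, 108 and 134 in young injured cords. Neither gene overlapped between the ages, at log2 fold changes of -0.62 ± 0.13 (SE, adjusted p = 0.0195) and -0.58 ± 0.13 (SE, adjusted p = 0.0240), and both calls ended without young injured replicate 1 or 3 (adjusted p = 0.0578 to 0.0585 for Plxna2 and 0.0578 to 0.0719 for Plxnb1). The second Plxnb1 probe gave -0.35 without passing and the mean of both gave -0.46 (adjusted p = 0.0530), while 2 of the 3 other Plxna2 probes passed. Epha4 had 32.5, 61.1 and 49.6 in aged injured and 80.7, 79.5 and 74.7 in young injured cords, at least 1.57-fold lower in aged mice (-0.76 ± 0.18 (SE, adjusted p = 0.0319) on the log2 scale). Its call ended without aged injured replicate 3, any 1 of the young injured replicates or young intact replicate 1 or 2 (adjusted p = 0.0502 to 0.0863), and the 3 other Epha4 probes above 50 were lower as well at -0.82, -0.56 and -1.24 (adjusted p = 0.0291, 0.0278 and 0.0346).

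Sema6d had 521, 907 and 756 in aged injured and 1160.4, 1062 and 1048 in young injured cords, 1.5-fold lower in aged mice (-0.62 ± 0.15 (SE, adjusted p = 0.0349) on the log2 scale). Without aged injured replicate 1 its value was -0.39 (adjusted p = 0.0186), and the call ended without aged injured replicate 3 or any 1 of the 9 arrays of the other groups (adjusted p = 0.0522 to 0.0921) or with the mean of its 4 probes, at -0.46 (adjusted p = 0.143). Sema4d was 1.47-fold lower in aged injured cord (-0.57 ± 0.15 (SE, adjusted p = 0.0428) on the log2 scale), and -0.38 without aged injured replicate 1 (adjusted p = 0.0690). Its call also ended without any 1 of the 9 arrays of the other groups (adjusted p = 0.0538 to 0.133), and its second probe gave 0.27 (adjusted p = 0.159), the opposite sign. The mean of its 3 probes gave -0.09 (adjusted p = 0.808), and array weights, no filter or a replicate block ended the call too (adjusted p = 0.0576, 0.0612 and 0.0550). Nrp2 was 1.35-fold higher in aged injured cord (0.43 ± 0.11 (SE, adjusted p = 0.0405) on the log2 scale), and the call ended without any single array other than aged injured replicate 2 (adjusted p = 0.0532 to 0.127). The other Nrp2 probes above 50 gave 0.15 and 0.64 (adjusted p = 0.569 and 0.111), and the call ended with the mean of all 4 probes and with no filter (adjusted p = 0.201 and 0.0568). Nrp1 was 1.39-fold higher in aged injured cord with an adjusted p of 0.0556, and 2 of its other probes passed at 0.62 and 0.56 (adjusted p = 0.0327 and 0.0428). Plxnc1 and Plxnd1 had log2 fold changes of 0.42 and 0.66 in the same direction (adjusted p = 0.0853 and 0.109). Sema3a, Efnb3, Unc5b, Robo1 and Epha5 also fell short of a call and were lower in aged injured cord. Their log2 fold changes were -0.37, -0.66, -0.49, -0.27 and -0.49 (adjusted p = 0.0504, 0.0554, 0.0701, 0.0916 and 0.0964).

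These 7 calls rest on the spread estimated over all 12 arrays. With the 6 injured arrays alone in the fit, no member passed (adjusted p = 0.134 to 0.194 for the 7 genes). Without aged injured replicate 2 the count was 4 higher and 18 lower, and without young injured replicate 1 it was 0 higher and 1 lower, with 29.1% of all genes called in the fit without aged injured replicate 2 and 2.84% in the fit without young injured replicate 1. Arrays of aged and young injured cord did not overlap for 17 of the 49 genes (34.7%), 5 higher and 12 lower, against 28.1% of all genes, and by the study's cutoffs no member differed, against 1.88% of all genes (1.30% higher and 0.580% lower). Marker sums of macrophages and microglia were higher and those of astrocytes, oligodendrocytes and their precursors lower in all 3 aged than in all 3 young injured cords, and whether the 7 differences follow the makeup of the segments was not tested.

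**Figure D5:**
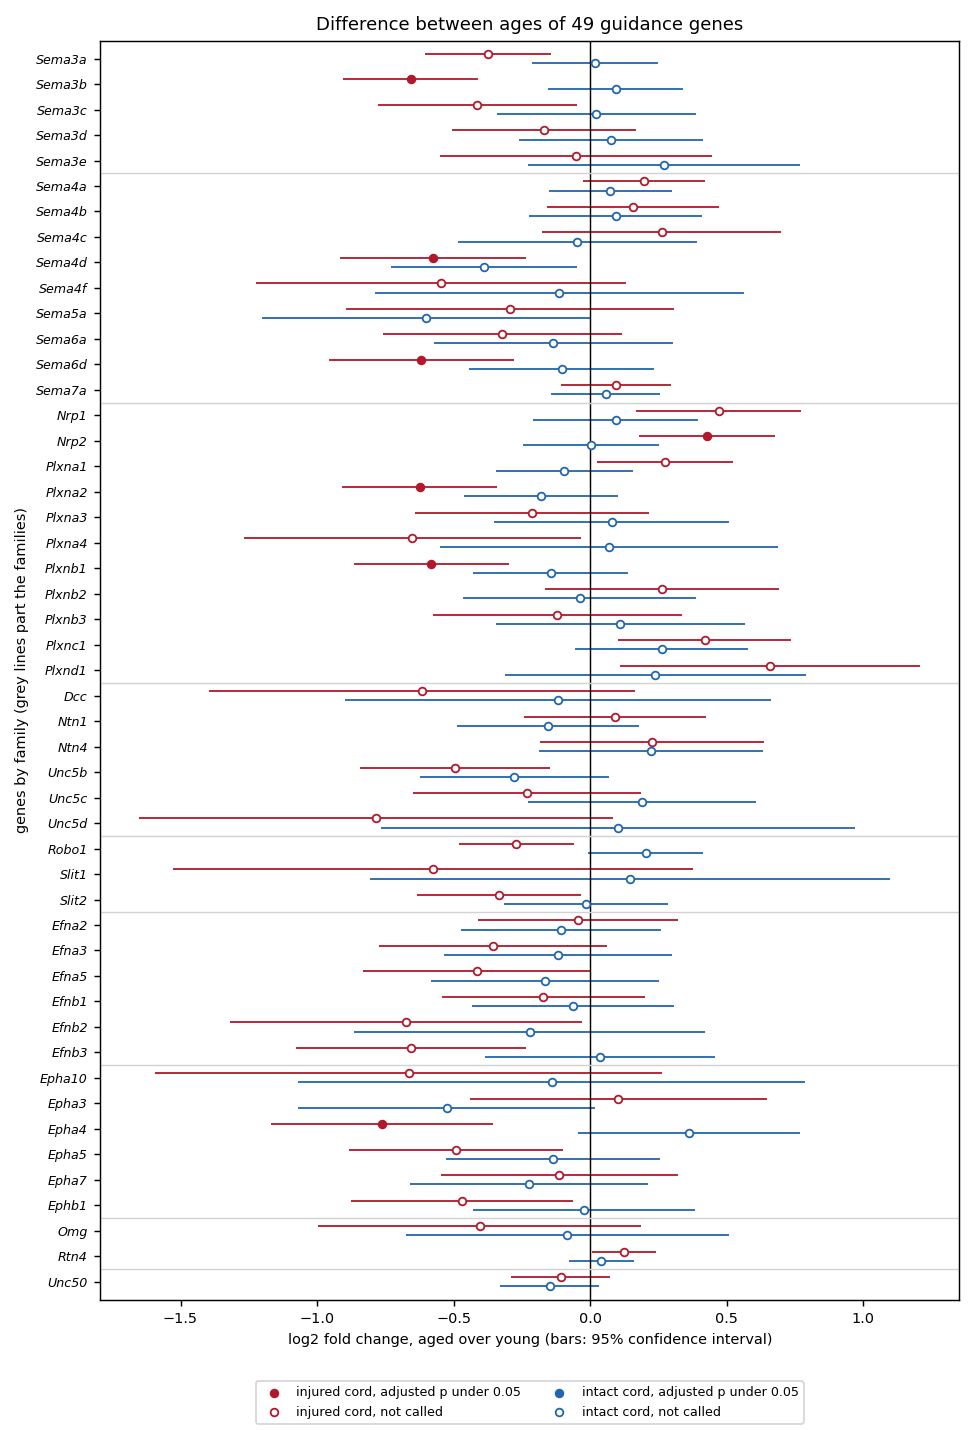
Points are log2 fold changes of aged over young mice for 49 genes in injured (dark red) and intact (blue) cord, with 95% confidence intervals, and filled points passed an adjusted p of 0.05. The 7 filled points are all in injured cord, with Nrp2 to the right and the other 6 to the left of 0.

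In intact cord no member differed between aged and young mice in limma's test, and 1 (Sema4d, 2.04%) had an unadjusted p under 0.05, against 10.2% of all genes, while 0.809% of all genes were called (0.542% higher and 0.266% lower). Sema4d had 121, 95.8 and 109.7 in aged intact and 146, 142 and 138 in young intact cords, 1.3-fold lower in aged mice (log2 fold change -0.39 ± 0.15 (SE, adjusted p = 0.396)). Sema5a had 124, 158 and 131 in aged intact and 198, 218 and 206 in young intact cords, with no overlap and a log2 fold change of -0.60 (95% confidence interval -1.20 to 0.00, adjusted p = 0.489). Epha4 was higher in all 3 aged intact than in all 3 young intact cords, with a log2 fold change of 0.36 (95% confidence interval -0.04 to 0.77, adjusted p = 0.570), the opposite sign to injured cord. Arrays of the ages did not overlap for 11 of the 49 genes (22.4%), 3 higher and 8 lower in aged mice, against 25.5% of all genes. With weights for the arrays 4 members were called, 1 higher and 3 lower, and with the 6 intact arrays alone 3 were called, 1 higher and 2 lower. In the fit of the 6 intact arrays these were Epha4, higher, and Sema4d and Sema5a, lower (adjusted p = 0.0417, 0.0409 and 0.00408). The shares of all genes called with array weights and with the 6 intact arrays alone are not given here, so these counts are not a result about the members.

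Whether the change after injury differed between the ages was tested as an interaction, which no member passed in limma, while 10 (20.4%) had an unadjusted p under 0.05, against 16.2% of all genes, and 0.438% of all genes were called (0.133% above and 0.304% below 0). The change was more negative in aged mice for Sema3b, at -0.75 (95% confidence interval -1.10 to -0.40, adjusted p = 0.0800) and for Epha4, at -1.12 (-1.70 to -0.55, adjusted p = 0.0957). For Robo1 the interaction was -0.47 (adjusted p = 0.145), and it was above 0 for Nrp2 at 0.43 and Plxna1 at 0.37 (adjusted p = 0.230 and 0.290). Epha4 passed without aged injured replicate 1 (-0.87, adjusted p = 0.0239) and without aged injured replicate 2 (-1.33, adjusted p = 0.0190), and without aged injured replicate 2 Sema3b, Sema3a and Sema6d passed as well. Over all genes 1.08% were called for the interaction without aged injured replicate 1 and 5.05% without aged injured replicate 2, against 0.438% with all arrays. The sign of the change after injury was the same at both ages for 44 of the 49 genes (89.8%, against 90.6% of all genes) and its size was larger in aged mice for 36 (73.5%, against 69.7% of all genes), and the 2 comparisons share no arrays.

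A list of 60 intracellular effectors and co-receptors of axon guidance was set beside the ligands and receptors, and 49 of its genes were tested. In aged mice 11 were higher and 25 lower after SCI, or 73.5% called against 75.5% of all genes, and in young mice 9 were higher and 22 lower, or 63.3% against 68.0%, with median log2 fold changes of -0.48 and -0.05, against -0.04 and -0.0047 over all genes. Fes, a kinase that binds plexin A1, had 112 in injured and 16.3 in intact cords of aged mice and 71.5 in injured and 13.9 in intact cords of young mice (at least 2.23-fold and at least 1.43-fold higher), and Mical1, an oxidase that takes actin apart downstream of plexins, had 125 in injured and 21.6 in intact cords of aged and 84.8 in injured and 19.1 in intact cords of young mice (at least 2.49-fold and at least 1.7-fold higher). Vav3, a guanine nucleotide exchange factor, was higher in aged mice (1.16 on the log2 scale, adjusted p = 3.75e-04), and Pak2, a kinase under Rac and Cdc42, was higher in young mice (0.95, adjusted p = 3.69e-05). Among the genes called lower were Chn1, Ntng1 and Pak3 in aged mice and Chn1, Ntng1 and Cdk5r1 in young mice. Chn1, which acts downstream of Epha4, had 75.5 in injured and 408 in intact cords of aged mice (-2.59 on the log2 scale, adjusted p = 6.23e-05) and 102 in injured and 411 in intact cords of young mice (-2.05, adjusted p = 4.44e-04). The netrin-G1 gene Ntng1 had 31.8 in injured and 185 in intact cords of aged and 44.3 in injured and 159 in intact cords of young mice, at least 3.7-fold and at least 3.19-fold lower (adjusted p = 8.31e-05 and 0.00156). Pak3, a kinase of neurons, had 207 in injured and 826 in intact cords of aged mice (adjusted p = 5.04e-04), and Cdk5r1, the activator of the kinase CDK5, had 81.1 in injured and 255 in intact cords of young mice (adjusted p = 3.93e-05). Between aged and young injured cords 10.2% of the 49 listed genes were called, near the 8.94% of all genes. Vav3 was higher in aged mice (1.13 on the log2 scale, adjusted p = 0.0138), and Ptprf, Ngef, Tnfrsf19 and Ablim1 were lower in aged mice. Of these, the receptor phosphatase gene Ptprf differed by -0.53 (adjusted p = 0.0183) and Tnfrsf19, known as a partner of the Nogo receptor, by -0.42 (adjusted p = 0.0392). Ngef, an exchange factor that binds Epha4, had a mean just below 50 in aged injured and 69.3 in young injured cords, at least 1.39-fold lower (adjusted p = 0.0432). No gene of the list was called between ages in intact cord or for the interaction.

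Mean signals of 24 members stayed at or below 50 in all 4 groups, and these genes were not tested. They were Efna1, Efna4, Epha1, Epha2, Epha6, Epha8, Ephb3, Ephb4, Ephb6, Lingo1, Plxna4os1, Robo2, Robo3, Robo4, Rtn4r, Sema3f, Sema3g, Sema4g, Sema5b, Sema6b, Sema6c, Slit3, Unc5a and Unc5cl. Just under the limit, Sema3f had means of 18.9 ± 12 in aged injured, 21.1 ± 16.8 in young injured, 37.2 ± 18.2 in aged intact and 38.4 ± 5.12 in young intact cords, and Ephb6 reached 36.9 ± 1.66 in aged intact cord. Just above it, Sema6a reached a mean of 54 ± 1.18 in young injured cord. No fold is given for the 24 genes, since a signal of 50 was taken as the floor of measurement. Unc50, which met the rule by its name alone, had means of 667 in aged injured, 716 in young injured, 601 in aged intact and 667 in young intact cords and was called in no comparison. Ephb2 was not analysed here, because no probe was paired with it alone.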

How the data were processed

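RNA from 12 spinal cord segments, 1 mouse each, was labeled and hybridized to Affymetrix mouse genome arrays. Signal intensity values were derived from the scans by the authors with MAS 5.0, an algorithm that subtracts the background and brings every array to 1 scale, and the deposited intensity values are linear, with a trimmed mean of 100 on each array. The p-values rest on 1 spread per gene, pooled over the 3 mice of every group and moderated over the genes. A comparison of groups thus also reflects the spread of mice outside it, and that spread was largest in aged injured cord. Precision is limited by the number of arrays. The build behind the probe annotation is not given in the sources used here.

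Of 45101 probes, 64 were controls, 34945 had 1 annotated gene, 932 had several and 9160 had none. The brightest probe on average stood for a gene. Genes that passed a mean signal of 50, the cutoff of the study, in 1 group or more were tested on the log2 scale with limma 3.58.1 in R 4.3.3 (lmFit with 1 mean per group over all 12 arrays, eBayes with trend, Benjamini-Hochberg adjustment), after a test on simulated data. If the mean of a group was below 50, that group was set to 50 and the fold is a lower bound ("at least"). The log2 values of such genes are as fitted and measure no fold.

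The members and the gene lists were chosen with earlier results of these data known. Genes called in at least 1 comparison and a further list of members were named. Signals on each array were given for the 12 largest called changes after injury at each age and for further members chosen after their values were seen. Alternatives were other scalings, filters, probes and models and each array left out in turn. Arrays with the same replicate number were compared by the correlation of their deviations from the group means. The numbers were not taken to pair the mice, since not every same-numbered pair correlated above 0.1. Aged and young injured replicate 1 did at 0.595, and aged and young injured replicate 2 at 0.667. Whether the numbers pair the injured mice alone was not tested. All columns of values in the deposited table belong to these 12 arrays. Promoter windows came from RefSeq, build GRCm38.p6. Some probes can read transcripts with like sequence, among them those of Sema4a, Sema4f and Plxnb3.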

Additional observations from a re-analysis of the deposited data

How the results depend on the processing

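Of 73 calls of a gene in a comparison, 41 held under every alternative run. With the cutoffs of the study (a fold of 2 and a signal of 50) 5 members were higher and 12 lower after injury in aged mice, 6 higher and 7 lower in young mice, and none differed between the ages in injured cord. Between aged and young injured cords, against 1 higher and 6 lower member, array weights gave 2 higher and 10 lower, the mean of all probes 0 higher and 2 lower, only the injured arrays 0 and 0, no filter 0 higher, and median centring, a pseudocount of 16 or signals below 50 set to 50 each gave 2 higher. In intact cord array weights gave 1 higher and 3 lower, and only the intact arrays 1 higher and 2 lower, against 0. For the interaction array weights gave 1 higher and 5 lower and signals below 50 set to 50 gave 2 lower, against 0. The shares of all genes called under these settings are not given here, so the shifts need not be particular to the members. The cause of these shifts was not tested. With 1 array left out, the counts ranged from 11 to 13 higher and 22 to 25 lower after injury in aged mice, 9 to 15 higher and 12 to 22 lower in young mice, 0 to 4 higher and 1 to 18 lower between ages in injured cord, 0 higher and 0 to 1 lower in intact cord, and 0 higher and 0 to 4 lower for the interaction. Over all genes the called share then ranged from 71.0% to 75.7% after injury in aged mice and 59.7% to 72.8% in young mice. It ranged from 2.77% to 29.1% between ages in injured cord, 0.314% to 2.05% in intact cord and 0.0666% to 5.05% for the interaction. The replicate numbers were not taken to pair the mice. Of 18 same-numbered pairs, with correlations from -0.11 to 0.67, 2 were above 0.1, both of aged with young injured cord. A replicate block ended 4 calls, made 4 and gave 3 higher members between ages in injured cord. With the mean of all probes of a gene, Epha7 had -0.23 in aged and -0.0251 in young mice, Sema3a 0.15 in young mice and Sema6d 0.0279 in aged mice on the log2 scale, against the opposite signs with the brightest probe. These means include probes below 50 in every group, as do those of Plxna1, Sema3b, Sema3c, Sema4d, Sema7a, Slit1, Efnb2 and Nrp2. Low signals limit the values below 50.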

Other observations

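Of the 24 members at or below a mean signal of 50 in every group, 5 had injured cords that lay below all intact cords (Epha6, Lingo1, Sema4g, Slit3 and Unc5a), and none had injured cords above all intact ones. They were picked after their values were seen and are given as values with no test and no fold. The same order was not counted among the other genes at or below 50, so the count of 5 has no share over all genes beside it and is not a result about the members. Unc5a, a netrin receptor, had 6.3, 7.3 and 6.8 in aged injured, 8.2, 9.3 and 11.1 in young injured, 22.8, 18.3 and 22.2 in aged intact and 25.4, 18.9 and 26.1 in young intact cords. Slit3, a ligand of Robo receptors, had 1.8, 2.5 and 0.60 in aged injured, 1.4, 0.90 and 1.5 in young injured, 17.3, 11.2 and 11.8 in aged intact and 7.8, 6.6 and 11.4 in young intact cords. Lingo1, a part of the Nogo receptor complex, had 20.5, 20.7 and 17.7 in aged injured, 16.5, 19.5 and 20.6 in young injured, 28.6, 35.7 and 29.6 in aged intact and 23.9, 23.0 and 33.0 in young intact cords. Signals this low can hold stray hybridization, so these values show an order of the arrays and no level of the transcripts.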
